A study of Homo sapiens with 12 samples.

Results

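This is an account of where STAT3 phosphorylated on serine (PS-727-STAT3, here pSTAT3) sat on the genome of DCIS.COM cells with and without BCL9 knockdown. It covers 5 of the 12 samples of the series: 3 ChIP-exo libraries of non-silencing (NS) control cells and 2 of BCL9-KD cells, all made with the same pSTAT3 antibody (phospho S727 STAT3). DCIS.COM is a human breast cancer cell line of basal type that forms ductal carcinoma in situ-like lesions. The NS and BCL9-KD cells each carried a lentiviral hairpin vector (1 hairpin sequence is given for BCL9) and grew in the same medium with horse serum. No added ligand is named for either group. The replicates were biological replicates, and the sources used here do not say whether the knockdown cells were a pool or a clone. The peak lists hold no RNA or protein level, so the depth of the knockdown could not be checked in them. In the same series, 5 libraries made with a BCL9 antibody (3 control, 2 knockdown) and 1 control CTCF library served for comparison only.

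STAT3 is a latent transcription factor of the IL-6 family pathway. Receptor-bound kinases phosphorylate it on a tyrosine, upon which it dimerises and binds a palindromic GAS element, and phosphorylation of the serine in its transactivation domain adds to its activity. BCL9 is a co-activator without a DNA-binding domain, best known for joining β-catenin to Pygopus in Wnt signalling. At enhancers of epithelial cells, STAT3 is often found beside AP-1, a dimer of FOS and JUN proteins. The comparison asks which pSTAT3 regions stood higher or lower in the lists once BCL9 was reduced.

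Each list gives peak pairs, that is, a border of exonuclease digestion on each strand, with a midpoint and a signal. The signal was a multiple of a unit that differed between libraries, 1 unit being worth 1 tag, so peak pairs were ranked within each list, with rank 1 as the strongest. The control lists held 118933, 98665 and 374089 peak pairs and the knockdown lists 415624 and 493174. The comparisons below use equal list length, the 98665 strongest peak pairs of each list, unless full lists are named. The weakest peak pair kept at that length had 4, 6 and 8 tags in control replicates 1, 2 and 3 and 9 and 10 tags in the knockdown. A peak pair of 8 tags could therefore be kept in a control list but in neither knockdown list. Regions were merged 100 bp windows of the 24728 strongest peak pairs of each list. Of 21589 such regions, the 10009 that overlapped these strongest peak pairs in at least 2 of the 5 libraries were tested. The 2 knockdown libraries alone could thus admit a region. The score was −log2 of the best rank, so that a higher score is a stronger rank.

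Few pSTAT3 regions changed rank past the test after BCL9 knockdown, and those that did were gains. Of the 10009 regions, 6 rose with an adjusted p under 0.05 (limma, Benjamini-Hochberg), a background of 0.0599% of regions, and 0 fell (0%). At an unadjusted p under 0.05, 607 were higher and 214 lower in the knockdown. That balance depended on the scale: on log2 tags 361 were higher and 366 lower, and among the 7391 regions listed in all 5 libraries 280 and 225. The regions that rose lay at GFPT2, TUBGCP2, IL33, TNFRSF10B, TPBG and ACSS2, and their ranks improved by 5.01 to 6.29 on the log2 scale. Those at IL33, TNFRSF10B and ACSS2 had no control peak pair among the strongest 24728. They were tested only because both knockdown libraries ranked them there, so their p is given as a description. Without control replicate 1, 2 or 3 or knockdown replicate 2, 0 regions passed, and without knockdown replicate 1, 1 did. On simulated lists the fit recovered large gains far better than large losses, so the 0 does not show that no region fell.

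The sequences below are the 100 bp windows on hg19 (GRCh37, plus strand, 5′ to 3′) round the strongest peak pair of 5 regions that rose and of 3 of the 10 named below for lower ranks, shown so that the motif strings can be read beside the values. Capitals mark matches, on either strand, to any of the 11 motif strings searched, such as TGANTCA for AP-1.
GFPT2, chr5:179757985-179758084: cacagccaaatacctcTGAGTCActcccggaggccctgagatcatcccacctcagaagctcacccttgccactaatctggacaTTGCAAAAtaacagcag
TUBGCP2, chr10:135106805-135106904: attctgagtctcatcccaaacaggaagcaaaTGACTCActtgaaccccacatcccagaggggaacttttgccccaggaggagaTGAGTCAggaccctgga
IL33, chr9:6153501-6153600: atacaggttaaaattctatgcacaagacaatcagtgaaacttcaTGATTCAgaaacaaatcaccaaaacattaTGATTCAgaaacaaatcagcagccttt
TPBG, chr6:83106883-83106982: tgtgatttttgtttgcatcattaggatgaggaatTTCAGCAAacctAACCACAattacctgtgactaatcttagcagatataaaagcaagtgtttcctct
ACSS2, chr20:33479164-33479263: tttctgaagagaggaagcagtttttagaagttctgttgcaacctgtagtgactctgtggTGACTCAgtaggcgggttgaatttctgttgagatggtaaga
MAP2, chr2:210360798-210360897: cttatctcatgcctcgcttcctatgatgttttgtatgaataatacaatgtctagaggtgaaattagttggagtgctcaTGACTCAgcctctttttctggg
STIM1, chr11:3926785-3926884: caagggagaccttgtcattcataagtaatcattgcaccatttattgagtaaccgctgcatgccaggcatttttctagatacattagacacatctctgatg
CTNNB1, chr3:41179206-41179305: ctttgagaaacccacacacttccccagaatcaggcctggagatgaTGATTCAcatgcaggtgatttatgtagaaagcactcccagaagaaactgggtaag
The windows at GFPT2, TUBGCP2, IL33 and ACSS2 hold an AP-1 string, and those at TUBGCP2 and IL33 hold 2. The window at GFPT2 also holds a C/EBP string (TTGCNNAA), and that at TPBG a C/EBP and a RUNX string (TGTGGTT). The window at TNFRSF10B, the other region that rose, is not shown and holds none of the 11 strings. Of the 6 regions that rose, 4 (66.7%) hold an AP-1 string, against 50.0% of all regions tested. The windows at MAP2 and CTNNB1 hold an AP-1 string too, and that at STIM1 holds none of the 11. No window shown holds the palindromic STAT3 string TTCCNGGAA.

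The GFPT2 region had the greatest change. It lies at chr5:179757838-179758195, 101 bp upstream of a transcription start site (TSS) and in an intron of GFPT2, which encodes an enzyme of the hexosamine pathway. It had 6, 15 and 33 tags in control replicates 1 to 3 and 112 and 125 tags in the knockdown. Its ranks were 49578, 6602 and 7236 in control cells and 192 and 151 in BCL9-KD cells, so both knockdown libraries placed it among their strongest sites. The score rose by 6.29 ± 1.32 (SE), adjusted p = 0.0105 by limma.

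The TUBGCP2 region (chr10:135106749-135106944) lies in an exon of this γ-tubulin complex gene, 0.526 kb upstream of its nearest TSS. It was not listed in control replicates 1 and 2, had 29 tags in control replicate 3, and had 58 and 97 tags in the knockdown. The score rose by 5.59 ± 1.20 (SE), adjusted p = 0.0105. The control libraries differed at this region, which replicate 3 ranked at 10018, against 2121 and 430 in the knockdown.

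An intergenic region (chr9:6153415-6153664), 62.2 kb upstream of the nearest TSS, that of the alarmin cytokine IL33, had 7 tags in control replicate 1, was not listed in replicate 2 and had 5 tags in the full list of replicate 3. It had 41 and 97 tags in the knockdown, and the score rose by 5.51 ± 1.16 (SE), adjusted p = 0.0105. Both knockdown libraries were above every control library.

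The region 5.77 kb upstream of TNFRSF10B (chr8:22932261-22932387), which encodes a death receptor for TRAIL, had 9 tags in control replicate 3, none listed in replicates 1 and 2, and 65 and 48 tags in the knockdown. The score rose by 5.15 ± 1.14 (SE), adjusted p = 0.0149. A region 33.0 kb downstream of a TSS of TPBG (chr6:83106822-83107025), the gene of the 5T4 surface glycoprotein, was listed in control replicate 3 only, with 34 tags, and had 62 and 80 tags in the knockdown. The score rose by 5.04 ± 1.20 (SE), adjusted p = 0.0429. In both regions the only control library with a peak pair was the one with the longest control list.

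The ACSS2 region (chr20:33479126-33479354) lies in an intron of this acetyl-CoA synthetase gene, 8.58 kb from a TSS. It had 54 and 52 tags in the knockdown, no listed peak pair in control replicates 1 and 2, and 5 tags in the full list of replicate 3. The score rose by 5.01 ± 1.13 (SE), adjusted p = 0.0176. A region that is not listed before the end of the list was placed at rank 98666, so the size of this change, like the others with unlisted libraries, depends on where the lists end. None of the 10 regions named here and next as higher had a CTCF peak pair, even in the full CTCF list, in which 17.6% of all regions tested had one. Of the 10 regions named below as lower, only that at MAP2 had one, with 4 tags. The lack of CTCF thus did not set the higher regions apart.

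The next regions by p, taken only from those with every knockdown library above every control library, did not pass the test. They lay in introns of HMCN1, FSTL4 and IL31RA and 191 kb upstream of MSX2, a homeobox gene. The HMCN1 region had no control peak pair among the strongest 24728 and was tested through the knockdown libraries alone. IL31RA encodes a cytokine receptor of the IL-6 receptor family. Its region had 12, 0 and 18 tags in control cells and 61 and 79 in the knockdown (log2 change 4.76 ± 1.20 (SE), limma adjusted p = 0.0776). FSTL4, a follistatin-like gene, had 2 AP-1 strings in its window and tags of 0, 13 and 30 against 81 and 92 (5.09 ± 1.26 (SE), limma adjusted p = 0.0618).

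No region with a lower rank passed the test. The 10 with the smallest p among regions whose groups did not overlap are given by their values. The region in an intron of MAP2 (chr2:210360683-210361032), a microtubule-associated protein, had 33, 39 and 62 tags in control cells and 20 and 23 in the knockdown. Its ranks were 1048, 502 and 1116 against 30552 and 26653, a log2 change of −5.09 ± 1.29 (SE), adjusted p = 0.0776 by limma. All 3 control libraries ranked it far above either knockdown library.

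The STIM1 region (chr11:3926784-3926954), 2.14 kb downstream of a TSS of this sensor of calcium stores, had 20, 15 and 48 tags in control cells. Knockdown replicate 1 had 10 tags, and replicate 2 had 8 in its full list only. At equal length replicate 2 was therefore placed at rank 98666 (log2 change −4.41 ± 1.17 (SE), limma adjusted p = 0.131). With full lists and each library centred on its median, the STIM1 region passed (limma adjusted p = 0.0427). The ZNF652 region (chr17:47439663-47440000) is at the TSS, 9 bp into the UTR of this zinc finger gene. Its ranks were 118, 99 and 801 against 15360 and 3373 (log2 change −5.09 ± 1.42 (SE), limma adjusted p = 0.164). Its tags were 58, 62 and 69 against 28 and 53, and the knockdown lists had more tags at a given rank.

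The others lay by ZNF608, AMOTL2, ZFPM2, C18orf25, ZBTB18, CTNNB1 and PFDN1, with log2 changes of −4.22 to −3.63. AMOTL2 encodes an angiomotin that holds back YAP, and its region, 39.7 kb from the TSS, had 23, 40 and 70 tags against 30 and 22. The region 57.0 kb upstream of CTNNB1, the β-catenin gene, had 23, 34 and 56 tags against 19 and 30. That control and knockdown ranks did not overlap in these regions was a condition of their choice.

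**Figure D1:**
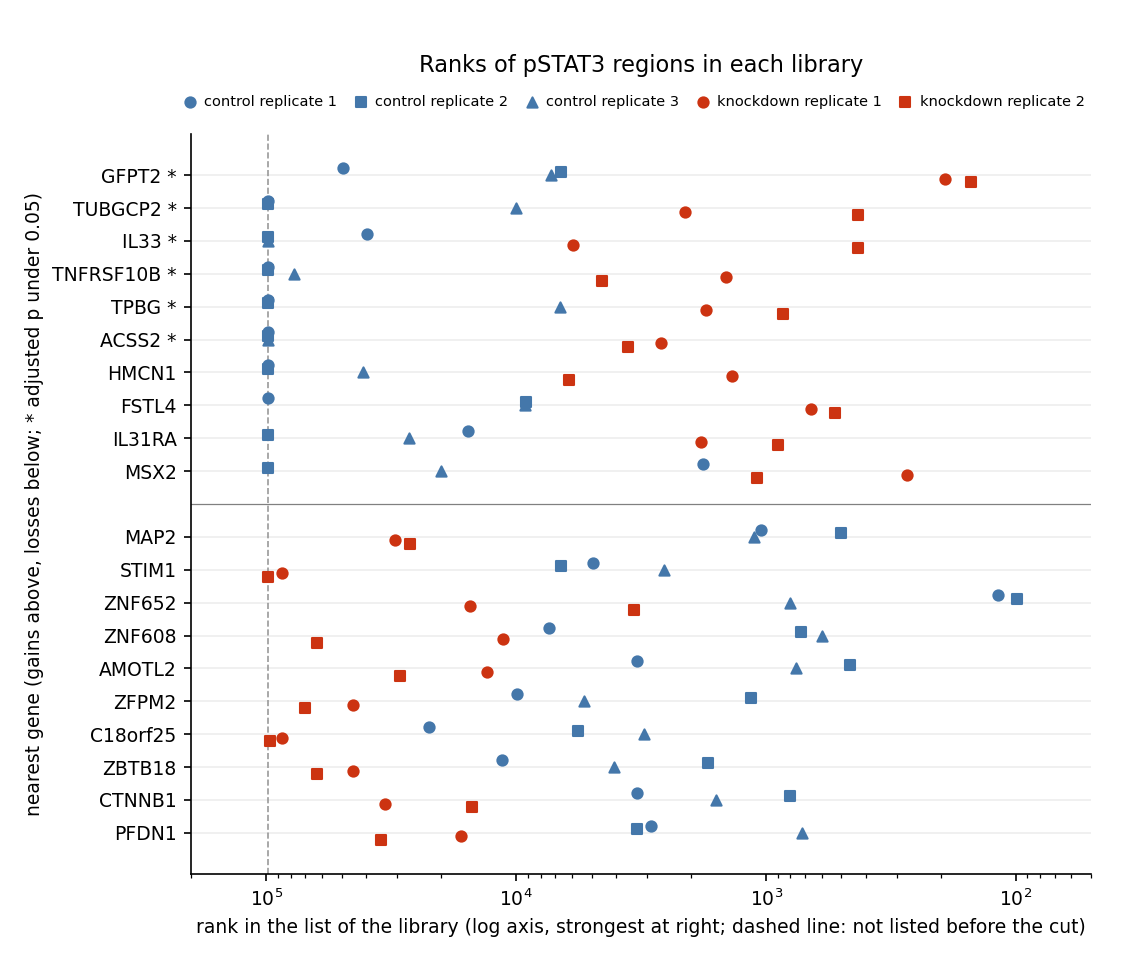
Rank (x axis, log scale, strongest at right) of 20 pSTAT3 regions, named by their nearest gene, in each library; circles, squares and triangles are replicates 1, 2 and 3, blue for control and red for knockdown, and the dashed line marks a region not listed before the end of the shortest list. The 6 regions with an asterisk passed the test; for 5 of these at least 2 of the 3 control points lie on the dashed line, the exception being GFPT2.

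Across all 10009 regions the score differed by a median of 0.17 (log2, knockdown minus control), with quartiles of −0.75 and 1.05. Of the regions, 54.3% changed by less than 1 on the log2 scale. The spread between replicates is given for pairs of single libraries, which is not a like measure to a difference of group means. The median absolute rank difference of a pair of libraries was 1.15 within the knockdown, 1.15 to 1.49 within the control and 1.19 to 1.64 between the groups. Control replicate 2, the shortest list, had the largest differences of both kinds.

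Of the 1000 regions with the best mean rank in control cells, 39.2% and 39.4% were among the 1000 best peak pairs of knockdown replicates 1 and 2, and 36%, 50.3% and 48.9% among those of the control libraries that chose them. In all, 99.3% were in the strongest 24728 peak pairs of either knockdown library, a measure close to its ceiling in every library, and 0 were unlisted. Their median ranks there were 1452 and 1578. Of the 1000 best in the knockdown, 29.2%, 36.1% and 38.2% were among the 1000 best of control replicates 1, 2 and 3, and 5, 20 and 2 were not listed. A best-ranked set is bound to rank lower in libraries that did not choose it, so the lower ranks in the other group are given as a description.

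**Figure D2:**
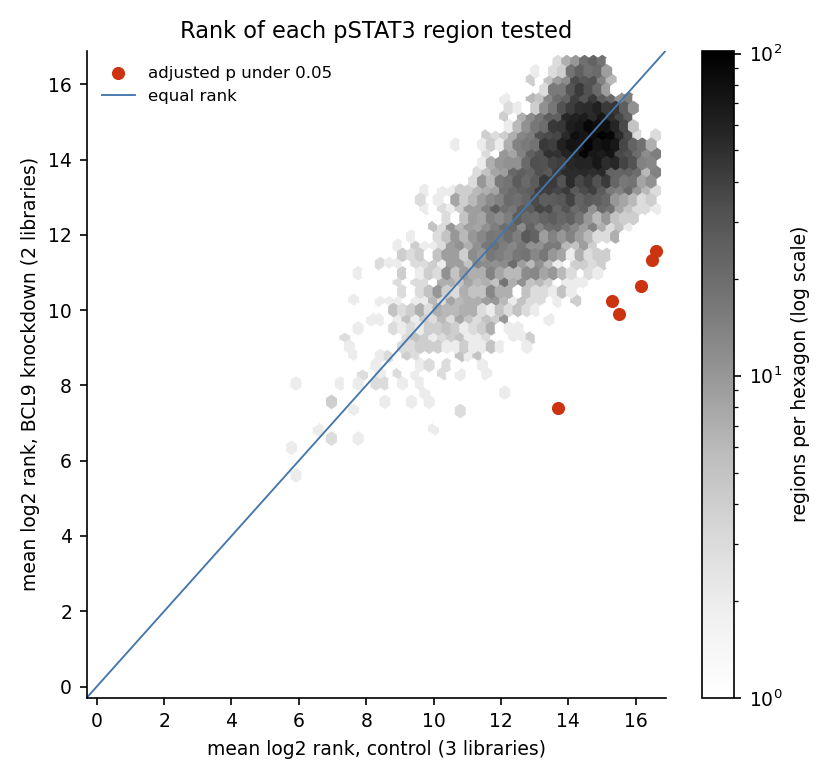
Mean log2 rank of each of the 10009 regions in the 3 control libraries (x axis) and the 2 knockdown libraries (y axis); grey hexagons are shaded by the number of regions on a log scale, and the line marks equal rank. The 6 regions that passed the test (red) lie below the line, at knockdown log2 ranks several units lower (stronger) than in control.

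Every knockdown library was above every control library in 1408 regions (14.1%), and below in 1065 (10.6%). These sets were chosen on the ranks, and their other features are given as a description. Of the 10 possible assignments of the condition to the 5 libraries, 1 puts the knockdown above every control library in a region without ties, and 1 puts it below. The shares are to be read against that. With full lists, where ranks were shares of list length, 3389 regions were higher and 88 lower without overlap, 5 passed as gains and 0 as losses. The longer knockdown lists shifted the median of all regions by 1.64 (log2) in that comparison. After centring each library on its median, 1258 and 1247 regions did not overlap, 8 passed as gains and 1, at STIM1, as a loss. The 6 regions above were among those 8, with HMCN1 and FSTL4. The balance of higher and lower regions thus differed with the treatment of list length.

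Promoters, within 1 kb of a TSS of a protein-coding gene, had lower mean scores relative to distal sites in both knockdown libraries than in any control library. There were 858 promoter and 9151 distal regions among those tested. The mean score of promoter regions minus that of distal regions was −0.04, 0.08 and 0.00 in control replicates 1 to 3 and −0.27 and −0.34 in the knockdown. The control mean was 0.01 ± 0.06 (SD, n = 3) and the knockdown mean −0.31 ± 0.05 (SD, n = 2), a difference of −0.32 (exact permutation over 10 assignments, two-sided, p = 0.1). This is the smallest p that 3 against 2 libraries allow, so no comparison of this kind could pass 0.05. Promoters made up 5.47% of the 1408 regions higher without overlap, 11.5% of the 1065 lower and 8.57% of all.

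The AP-1 string was present in 50.0% of all windows and in 3.57% of flanking windows 500 and 1000 bp away, while the palindromic STAT3 string was in 0.819% (2.98 times its flanks). Regions with the AP-1 string had a mean score above the others by 0.29, 0.19 and 0.31 in control replicates 1 to 3 and by 0.51 and 0.58 in the knockdown. The difference between the groups was 0.29, with every knockdown library above every control library (exact permutation p = 0.1, 0.275 after Benjamini-Hochberg over 11 motifs). The string was in 57.1% of the regions higher without overlap and 40.3% of those lower.

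For TEAD, RUNX and KLF/SP strings the differences were negative. TEAD factors are the DNA-binding partners of YAP, and regions with their string (CATTCCA) scored above the others by 0.15, 0.20 and 0.20 in control cells and below by −0.05 and −0.13 in the knockdown. The difference was −0.28 for TEAD, −0.17 for RUNX and −0.18 for KLF/SP, each without overlap between groups (exact permutation p = 0.1, adjusted p = 0.275). KLF/SP strings are GC boxes, common at promoters, and whether the promoter and KLF/SP differences are separate was not tested. The STAT3 string showed a difference of −0.003 (control −0.09 ± 0.12 (SD, n = 3), knockdown −0.09 ± 0.10 (SD, n = 2), exact permutation p = 1), and the looser half-site pair TTCNNNGAA, which includes the STAT3 string, 0.004 (exact permutation p = 1). C/EBP, ETS, NF-κB, TCF/LEF (ATCAAAG) and GRHL strings differed by −0.61 to 0.11, with exact permutation p of 0.3 to 0.7. Only 5 regions held the GRHL string. A match of letters is not a bound site.

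**Figure D3:**
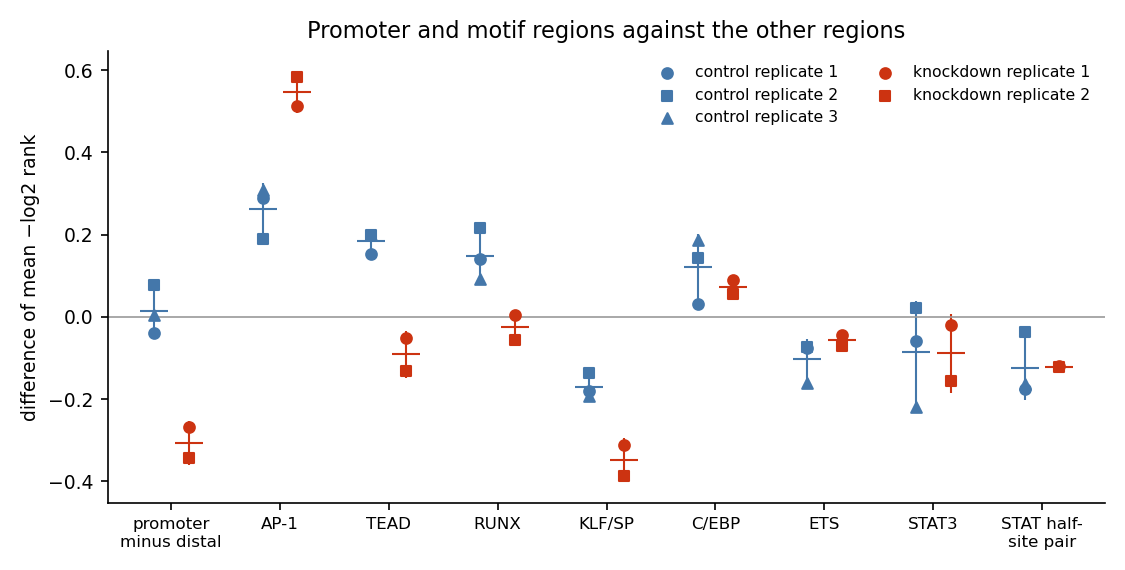
Difference of mean score (−log2 rank) between promoter and distal regions and between regions with and without a motif string, 1 point for each library; bars are group means ± SD, blue control (n = 3) and red knockdown (n = 2). The groups do not overlap for promoters, AP-1, TEAD, RUNX, KLF/SP and ETS, and overlap for C/EBP, STAT3 and the STAT half-site pair.

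The BCL9-antibody libraries, which were not used in the ranking of pSTAT3 regions, were read at the regions with the smallest p. Since no lost region passed, the 500 regions with the smallest p in each direction were compared. The knockdown pSTAT3 libraries alone could admit a region to the set with higher ranks, and control libraries alone to the set with lower ranks. The values at both sets are therefore given as a description. In control cells, 25.2%, 20.8% and 25.6% of the 500 with higher pSTAT3 ranks were in the strongest 24728 peak pairs of BCL9 replicates 1, 2 and 3, and in the knockdown 31.4% and 38.2%. For the 500 with lower ranks the shares were 49.4%, 50.4% and 58.8% in control cells and 52.6% and 49.8% in the knockdown. The mean BCL9-antibody score at the first set minus the second was −0.83 ± 0.09 (SD, n = 3) in control cells and −0.42 ± 0.18 (SD, n = 2) in the knockdown. The difference of 0.41 was without overlap between groups (exact permutation p = 0.1, the smallest possible). The share of the set with higher pSTAT3 ranks differed by 10.9 percentage points (exact permutation p = 0.1) and that of the set with lower ranks by −1.67 (exact permutation p = 0.9). Over all 10009 regions the shares were 40.9% ± 5.3 (SD, n = 3) and 48.1% ± 1.7 (SD, n = 2) (exact permutation p = 0.3). At the 6 regions that rose, the mean score minus that of all other regions was −0.46 in control cells and −0.67 in the knockdown, and the groups overlapped (exact permutation p = 0.7).

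Genes were scored by the best pSTAT3 rank within 5 kb of any TSS. Of 20090 protein-coding genes, the 8355 listed at equal length in at least 2 of the 5 libraries were tested. The knockdown libraries alone could thus admit a gene. In either direction 0 genes passed (limma, background 0% gained, 0% lost). At an unadjusted p under 0.05, 98 were higher and 98 lower. The median change was −0.28 (log2), with 2331 genes higher and 6024 lower, and the groups did not overlap in 426 genes upwards (5.1%) and 1140 downwards (13.6%). Counts of gene lists below are to be read against these shares. That balance turned with the processing. With full lists 4784 genes were higher and 78 lower without overlap among 17480 tested (median 0.66), centring each library brought this to 1913 and 2285, and with at least 9 tags 878 were higher and 236 lower among 4983 (median 0.07). More lower than higher members in a list is therefore what equal list length gave over all genes. Of the 44 genes named here, 14 moved by over 1.5 times when 1 library was left out.

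TUBGCP2 and GFPT2 headed the genes with higher ranks, through the regions described above. At TUBGCP2, the tags of the best peak pair were 4, 10 and 29 against 58 and 97 (log2 change 4.71 ± 1.06 (SE), limma adjusted p = 0.0764). TM4SF20, a tetraspanin-like membrane protein gene, had steady tags of 11, 10 and 20 in control cells and 71 and 71 in the knockdown (3.96 ± 1.07 (SE), limma adjusted p = 0.604). NOX5, an NADPH oxidase gene, had 14, 10 and 18 against 55 and 85. KLHDC7B was not listed at equal length in any control library and had 5 tags in the full list of control replicate 3. It had 21 and 53 tags in the knockdown. It was tested through the knockdown libraries alone, so its change is given as a description. The other named genes with higher ranks were MAG, CEP85, KBTBD6, GARNL3 and TUBA1C, with changes of 2.88 to 3.30.

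Among genes with lower ranks, ZNF652 (−5.09) and STIM1 (−3.27) appeared again. The haemopexin gene HPX had 10, 26 and 40 tags against 17 and 12, and PIGC, an enzyme gene of GPI anchor synthesis, 11, 18 and 31 against 10 and 12. ANKRD2, TMEM184B, SYT12, KCNIP3, CCDC80 and TMEM63A changed by −3.43 to −2.52 without passing. Since the score is a best rank of many peak pairs, a gene can keep its score while another of its sites changes.

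Of the 10 genes that the study followed as targets or surface markers, 7 could be tested and none passed. These values cover 5 kb round each TSS. The study's ITGB3 sites lay downstream of the coding region, and it linked enhancers to genes over far longer distances. The values therefore need not cover the sites that the study described. ITGB3, encoding integrin β3, had 16, 12 and 34 tags at its best peak pair in control cells and 33 and 20 in the knockdown. Its ranks were 8616, 10822 and 6690 against 10497 and 34921, a change of −1.16 ± 1.01 (SE), limma adjusted p = 0.703, and the groups overlapped. Without knockdown replicate 1 the change was −2.03 and without replicate 2 −0.30. ITGA4 (integrin α4) had 7, 8 and 22 tags against 6 and 9 with full lists, and fell beyond the end of both knockdown lists at equal length (change −1.84 ± 0.93 (SE), limma adjusted p = 0.703). ITGB4 (integrin β4) gave −1.27 ± 0.93 (SE). The ranks of both did not overlap between groups, but their tags did. With full lists ITGB4 had 7, 9 and 18 tags against 9 and 17. At equal length it fell beyond the end of the list of knockdown replicate 1. ITGA2 (integrin α2) had 13, 22 and 65 tags against 91 and 71 and overlapping groups (2.07 ± 1.26 (SE), limma adjusted p = 0.703). BCL9 itself had 21, 25 and 82 tags against 43 and 94 (−0.07 ± 1.30 (SE)), CD44 gave 0.01 ± 0.94 (SE) and MUC1 0.14 ± 0.88 (SE). MMP16, ITGAV and FZD7 were listed in too few libraries to be tested. With full lists, their best peak pairs had at most 8 tags in any library.

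The list named IL-6 family signalling had a median change of 0.54, with 8 of 13 tested higher and 3 without overlap upwards, against −0.28 over all genes. Its highest member, TSLP, is an epithelial cytokine that does not belong to the IL-6 family. TSLP had 0, 0 and 19 tags in control cells and 37 and 32 in the knockdown (2.62 ± 0.94 (SE)). SOCS2, a feedback inhibitor of cytokine receptors, had 5, 9 and 9 against 28 and 34 (1.85 ± 0.95 (SE)). Of 22 STAT3 targets tested, 9 were higher and 13 lower. BCL3, a nuclear IκB protein gene, had 8, 10 and 30 tags against 59 and 56 (2.81 ± 1.05 (SE)), and IRF1, an interferon-regulated factor gene, 13, 17 and 17 against 16 and 14 (−2.10 ± 0.96 (SE)). The tags of IRF1 overlapped between the groups although its ranks did not. None of these genes passed the test (limma adjusted p = 0.703).

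AP-1 factor genes had a median change of 0.42, with 7 of 12 higher. BACH2, a repressor that pairs with small MAF proteins, had 19, 15 and 41 tags against 89 and 61 (2.38 ± 1.19 (SE)). Among 15 NF-κB genes and targets, 11 were lower, 4 of them without overlap, while the chemokine genes CXCL3 (2.10 ± 0.93 (SE)) and CXCL8 (−1.68 ± 0.95 (SE)) stood on opposite sides. Of 14 C/EBP and ETS factor genes 10 were lower, and of 14 Wnt targets and components also 10, with medians of −0.26 and −0.25. These are near the median of all genes.

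In the YAP and TEAD pathway, 14 of 17 genes were lower and 4 of these did not overlap, with a median of −0.18. AMOTL2 had 13, 11 and 42 tags against 17 and 20 (−2.11 ± 0.98 (SE)), and ANKRD1, a widely used YAP target, 16, 9 and 15 against 13 and 10 (−2.05 ± 0.94 (SE)), where the 10 tags fell beyond the end of the list at equal length and the tags overlapped. MAPK feedback inhibitors had 13 of 14 lower with a median of −0.54. DUSP7, a phosphatase of ERK, had control ranks of 2883, 2367 and 2260 against 9056 and 7421 (−1.72 ± 1.13 (SE)). Its tags, 24, 23 and 50 against 35 and 40, overlapped between groups. Genes of hypoxia and glycolysis had 11 of 16 lower, 5 without overlap, such as aldolase ALDOA (−1.60 ± 0.93 (SE)). The tags of ALDOA with full lists, 7, 11 and 13 against 5 and 12, overlapped between groups. No member of these 3 lists passed.

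Epithelial genes were mixed. Of 21 basal genes 15 were lower, and of 11 luminal genes 8. ITGA3 (integrin α3) was among the strongest sites of every library, with 64, 44 and 104 tags in control cells and 174 and 149 in the knockdown (1.55 ± 2.14 (SE)). DSC3, a desmosomal cadherin gene, had 18, 22 and 42 against 35 and 24 (−1.89 ± 1.06 (SE)). Among regulators and markers of epithelial-mesenchymal transition, 7 of 16 members were higher. The ranks of E-cadherin (CDH1, −1.89 ± 0.93 (SE)) and GRHL2 (−1.80 ± 0.94 (SE)), an activator of epithelial genes, were lower without overlap. The tags of both genes overlapped between groups. With full lists these were 12, 8 and 14 against 7 and 10 at CDH1, and 7, 15 and 15 against 10 and 14 at GRHL2. Of 15 p53 family targets 11 were lower, including the stress gene GADD45A with 28, 40 and 54 tags against 46 and 44 (−2.14 ± 1.24 (SE)), while TNFRSF10B was higher (1.86 ± 0.97 (SE)) with 10, 7 and 16 against 47 and 27 (0.74 without knockdown replicate 1 and 2.99 without replicate 2). The TNFRSF10B value comes from another peak pair than the region 5.77 kb upstream, which lies outside the 5 kb reach.

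Of the remaining lists, integrins had 8 of 16 higher, metalloproteinases and the plasminogen system 10 of 16, and EGF receptors and ligands 7 of 12. Cell cycle genes had 1 of 7 higher, genes of the unfolded protein and stress response 4 of 16, and cytosolic ribosomal proteins, a list of housekeeping genes, 4 of 17. Of 23 genes of other tissues in the annotation, such as markers that a breast line should lack, only 2 had enough listed peak pairs to be tested.

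**Figure D4:**
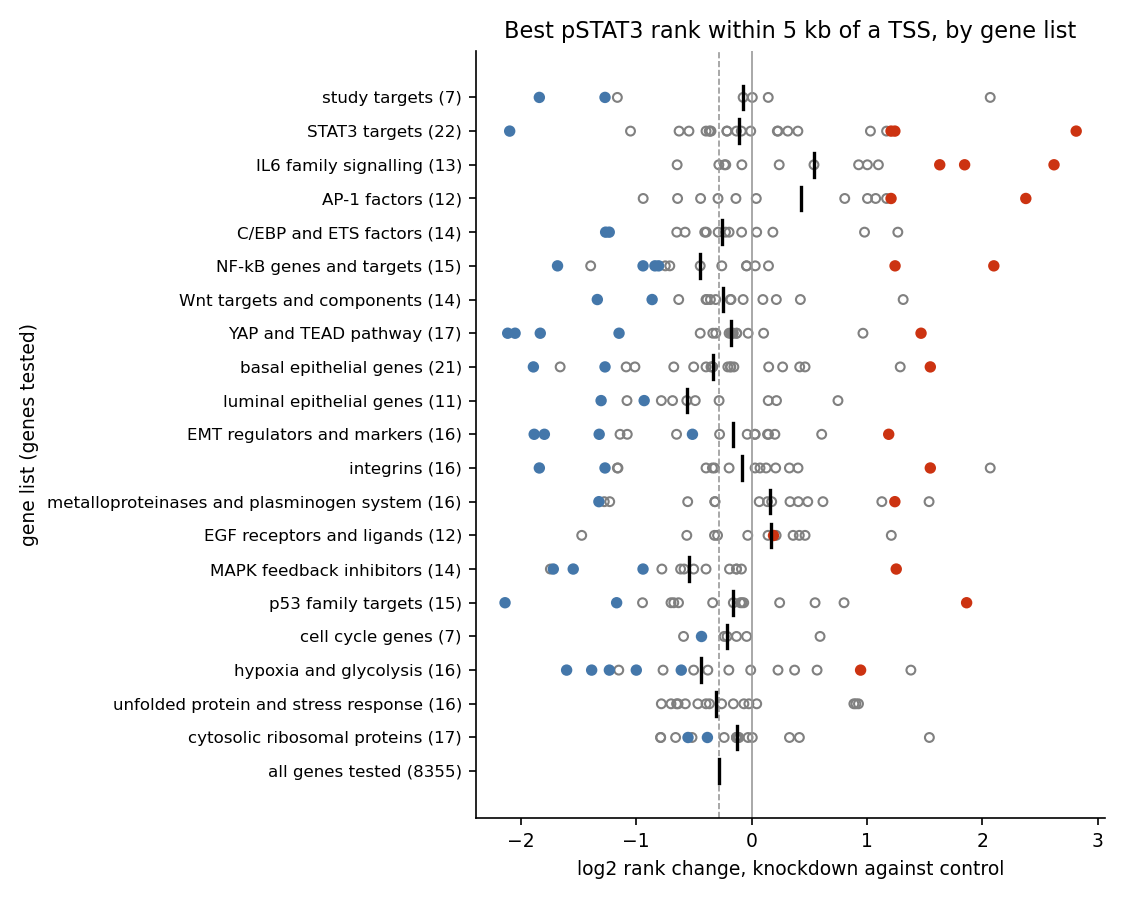
Log2 rank change of each tested gene (x axis, knockdown minus control, positive for a stronger rank) by gene list (y axis, with the number tested); filled points, red upwards and blue downwards, have groups that do not overlap, and black bars are medians. The dashed line is the median of all 8355 genes, −0.28; IL6 family signalling (0.54) and AP-1 factors (0.42) have medians above 0, and no point passed the test.

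By locus, the number of peak pairs per 1 Mb was compared at equal list length. Of 2236 bins, 6 rose (0.268%) and 7 fell (0.313%) past the test (limma), and 132 and 188 did so at an unadjusted p under 0.05. The strongest gains lay in the pericentromeric part of chromosome 9. The bin at 41 to 42 Mb had 22, 7 and 25 peak pairs in control cells and 42 and 55 in the knockdown (log2 change 1.54 ± 0.34 (SE), adjusted p = 0.0287). Bins at 46 to 47 Mb (1.36), 39 to 40 Mb (1.31) and 67 to 68 Mb (0.91) rose as well. Without control replicate 2 the bins at 41 and 39 Mb gave 1.00 and 0.86 and did not pass. These bins hold SPATA31A, CNTNAP3, FAM27 and ANKRD20A genes, families of near-identical copies in which reads cannot be placed with certainty. The bin with the imprinted genes DLK1 and RTL1 on chromosome 14 (101 to 102 Mb) had 56, 34 and 50 peak pairs against 86 and 83 (0.87 ± 0.21 (SE), adjusted p = 0.049).

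Among the bins that fell, those with the smallest p lay on chromosomes 1 and 5. On chromosome 1, the bin at 245 to 246 Mb, with HNRNPU, KIF26B and the methyltransferase gene SMYD3, had 37, 38 and 28 peak pairs against 11 and 11 (log2 change −1.55 ± 0.29 (SE), limma adjusted p = 0.00934). On chromosome 5, the bin at 122 to 123 Mb, with SNX2, PPIC and CEP120, had 37, 55 and 31 against 13 and 15 (−1.45 ± 0.28 (SE), limma adjusted p = 0.00934). Bins on chromosome 22 (42 to 43 Mb, with SREBF2 and XRCC6, −1.84), chromosome 17 (68 to 69 Mb, with the potassium channel genes KCNJ2 and KCNJ16, −1.65) and chromosome 14 (45 to 46 Mb, with FANCM, −1.48) fell too. The neighbouring bins of these 5 changed by −0.47 to 0.13.

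None of these bins passed with full lists. With full lists scaled to one length, 0 bins rose and 0 fell past the test, with 73 and 42 at an unadjusted p under 0.05, and the changes at the 5 bins that fell were −0.14 to 0.06. The chromosome 1 bin then had 48, 38 and 135 peak pairs in control cells and 149 and 184 in the knockdown, before scaling. The bins at 41 and 46 Mb of chromosome 9 kept changes of 1.25 and 0.84 without passing. In the strongest 24728 peak pairs of the BCL9-antibody libraries, the chromosome 5 bin had 9, 15 and 13 peak pairs in control cells and 10 and 8 in the knockdown, and the chromosome 1 bin 7, 2 and 7 against 9 and 1. The bin calls also did not hold without control replicate 2, without control replicate 3 or without either knockdown library.

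**Figure D5:**
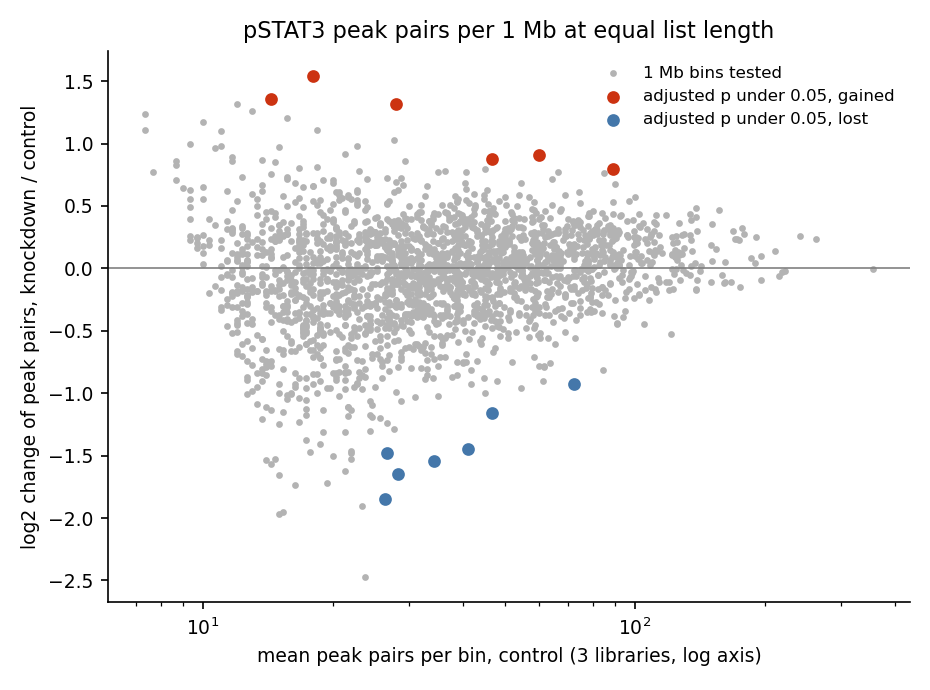
Log2 change in peak pairs per 1 Mb bin (y axis, knockdown against control, equal list length) against the mean number in the control libraries (x axis, log scale); grey points are the 2236 bins tested. The 6 bins that rose (red) lie at 0.79 to 1.54 and the 7 that fell (blue) at −1.84 to −0.92.

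Whole chromosomes differed by −0.455 to 0.345 percentage points of the peak pairs. The share on chromosome 8 was 4.58%, 4.45% and 4.62% in control cells and 4.78% and 4.77% in the knockdown, and that on chromosome 17 was 4.78%, 4.67% and 4.68% against 4.63% and 4.55% (exact permutation p = 0.1 for each, adjusted p = 0.575 over 23 chromosomes). In 10 of the 23 chromosomes the groups did not overlap. With every list cut at 24728 peak pairs, the changes on chromosomes 8 and 17 turned to −0.148 and 0.095.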

How the data were processed

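ChIP-exo peak lists of 3 control and 2 BCL9-KD pSTAT3 libraries of DCIS.COM cells were compared. The unit of the deposited values is signal, a score per peak pair that the authors' peak-pairing tool wrote for each library separately; in every list it came in multiples of 1 value, taken as 1 tag. The submitters' processing notes name bcl2fastq and hg19; for the aligner and the scaling of the signal nothing is given in the sources used here. The study's methods describe another peak caller, and these lists carry the tag of a pairing program. The lists hold no read totals, so depth per sample is unknown, and lists of unequal length were ranked and compared at equal length.

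Midpoints were widened to 100 bp windows. Equal scores shared a mean rank, and ties at the end of a list were broken in a fixed random order. Regions, genes (within 5 kb of a TSS, GENCODE 44 lifted to GRCh37) and 1 Mb bins (at least 10 peak pairs on average) were tested with limma 3.58.1 (trend, R 4.3.3) on −log2 rank or on log2(peak pairs + 1), and statistics with 1 value per library by exact permutation. The tables were made in Python 3.11.15, with numpy 2.4.6 for permutation and samtools 1.23.1 to index the genome from which sequences were read. The replicates are biological per the labels. The members, gene lists, motif strings and tests were chosen with earlier results of these data known.

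The 10 regions and 10 genes with the largest gain past the threshold without overlap of groups were named, and as many losses. Where fewer passed, those without overlap and with the smallest p filled the lists. All study targets, up to 4 members of each other list and 5 bins in each direction were named too. Of the list members, those without overlap and with a change of at least 1.5 (log2) are printed, a limit set after the values were seen. The region near CTNNB1 is printed as a sequence for its gene. Since no lost region passed, the BCL9-antibody comparison could not be made on regions past the threshold, and the planned 500 regions in each direction were used. The region test was checked on simulated lists of 31498 regions. The IgG sample was not analysed here.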

Additional observations from a re-analysis of the deposited data

How the results depend on the processing

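Counts of regions that rose moved with several choices: 0 passed on log2 tags, with at least 9 tags or with 50 bp shared between windows, and 1 passed where all 5 libraries listed the region. Of regions that fell, 1 passed in centred full lists, 1 on log2 tags and 2 with limma without a trend. Full lists and a reach of 1 kb gave 1 gene that rose each. For bins, full lists gave 0 in either direction, the 24728 strongest peak pairs 2 that fell, no filter 20 that rose and 26 that fell, and another order of ties (chosen after seeing the data, as were the centred full lists) 10 and 14. Leaving out 1 library gave 0 to 1 regions and 0 to 1 genes that rose, and 0 to 8 and 0 to 5 bins that rose and fell. The cause of these moves was not tested.

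Some differences turned sign, from values near 0 or, with another reach or full lists, from values far from it. The STAT3 string gave 0.0293 with full lists and −0.121 to 0.0782 without 1 library. Such ranges were −0.0675 to 0.0281 for the half-site pair, −0.332 to 0.025 for NF-κB and −0.0405 to 0.233 for TCF/LEF. CD44 ranged from −1.57 to 1.58, MUC1 from −0.193 to 0.52 and BCL9 from −1.78 to 1.63. Without turning sign, ITGB3 ranged from −2.03 to −0.30, ITGB4 from −1.81 to −0.73, ITGA2 from 1.05 to 2.94, KBTBD6 from 1.24 to 4.99, BACH2 from 1.26 to 3.49, CXCL3 from 1.12 to 3.07, CXCL8 from −2.53 to −0.84, DSC3 from −2.61 to −1.18, GRHL2 from −2.25 to −0.95, ALDOA from −1.94 to −1.03 and TNFRSF10B from 0.74 to 2.99. With full lists ITGB3 gave 0.30, BCL9 1.39 (centred 0.70) and ITGB4 0.20. On log2 tags CD44 gave −0.0490 and MUC1 −0.13. With a reach of 1 kb CD44 gave −0.52, ITGA2 −0.43, BACH2 −1.12 and ITGA3 −1.66, and with 50 kb CD44 −2.01, MUC1 −1.42, MAG −1.20, ITGB4 2.39, CXCL8 0.50 and CDH1 1.86. With full lists the bins at 67 Mb of chromosome 9, 42 Mb of chromosome 22 and 45 Mb of chromosome 14 gave −0.0678, 0.0302 and 0.0585, and chromosome 20 −0.0221 percentage points. At 24728 peak pairs chromosomes 8, 14 and 17 gave −0.148, 0.149 and 0.095.

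The deviations of same-numbered libraries from their group means correlated at 0.00735 and −0.00892. With 2 knockdown libraries, their deviations mirror each other, so these values cannot decide whether the replicate numbers pair the samples. With the replicate number as a block, 3 regions rose, 1 gene rose and 1 fell, 0 bins passed, CD44 gave −0.24 and BCL9 0.84. The promoter difference stayed between −0.366 and −0.273 and that of AP-1 between 0.224 and 0.302 without 1 library. Without read totals the effect of sequencing depth on list length is unknown.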
